A study of Mus musculus with 6 samples.

Results

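Kinesins, cytoplasmic dyneins and dynactin, the proteins that carry cargo along microtubules, were compared between Sox6+ and Sox6- dopaminergic neurons of the mouse substantia nigra pars compacta (SNc). The genes were taken by symbol: all that start with Kif and a digit, Klc and a digit, Dync, Dynl or Dctn and a digit, with a mean normalized read count of at least 10 over the 6 libraries. Of 64 matching symbols, 48 met this level, among 23337 genes in the deposited table, and 16 did not. The 48 were 28 kinesin genes, 14 dynein genes and 6 dynactin genes. The last genes inside the limit were Kif1c at a mean of 12.06, Kif20b at 12.10 and Klc3 at 13.74, and the first outside were Kif24 at 9.29, Kif23 at 9.23 and Kif15 at 9.20.

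The neurons came from adult C57BL/6 mice, with Th-2A-Flpo, Sox6-FSF-Cre and RC-Frepe in the genotype of both groups. Flp recombinase was thus tied to Th, the gene of tyrosine hydroxylase, and Cre to Sox6, a transcription factor of part of the SNc, while RC-Frepe is a reporter that gives one of a pair of fluorescent proteins. GFP marked the sorted Sox6+ neurons and mCherry the sorted Sox6- neurons, with 3 libraries of each, numbered 103, 825 and 1211 in both groups. The labels do not say how many mice went into a library or whether the libraries of a group came from separate mice, so p-values measure the spread between these libraries, which may be technical.

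Kinesins and dynein are motors that use ATP to step along microtubules. Most kinesins walk towards the plus end, which in an axon points to the terminal, and cytoplasmic dynein, with its cofactor dynactin, walks back towards the cell body. Kinesin-1 pairs heavy chains (Kif5) with light chains (Klc), and dynein-1 is built from heavy, intermediate, light intermediate and light chains. SNc dopaminergic neurons have very long and highly branched axons in the striatum, which mitochondria, vesicle precursors and signalling endosomes have to travel.

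Upstream sequences are shown for Dynlt3, the one gene of the 48 past the test's threshold, and for Kif5c and Klc1, the heavy and light kinesin-1 chains with the highest level per exon length, whose groups did not overlap. They are RefSeq sequences on GRCm38.p6, 5′ to 3′ on the gene's strand. Each ends at the base before the RefSeq gene start or, where it lies further upstream, the first GENCODE exon. The windows are Dynlt3 at chrX:9663004-9663233 (minus strand), Kif5c at chr2:49619036-49619285 (plus strand) and Klc1 at chr12:111758618-111758848 (plus strand). Capitals mark a GC box (GGGCGG on either strand) or a cyclic AMP response element (TGACGTCA).
Dynlt3: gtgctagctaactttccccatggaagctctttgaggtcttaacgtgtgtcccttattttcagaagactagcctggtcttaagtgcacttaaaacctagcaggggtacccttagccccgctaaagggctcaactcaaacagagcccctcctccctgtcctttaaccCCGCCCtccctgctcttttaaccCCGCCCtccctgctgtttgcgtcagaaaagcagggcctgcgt
Kif5c: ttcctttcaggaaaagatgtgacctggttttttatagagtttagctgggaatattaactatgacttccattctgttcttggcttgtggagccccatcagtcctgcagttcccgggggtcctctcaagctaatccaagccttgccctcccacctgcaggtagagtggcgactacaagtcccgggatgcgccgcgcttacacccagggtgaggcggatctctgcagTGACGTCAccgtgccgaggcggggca
Klc1: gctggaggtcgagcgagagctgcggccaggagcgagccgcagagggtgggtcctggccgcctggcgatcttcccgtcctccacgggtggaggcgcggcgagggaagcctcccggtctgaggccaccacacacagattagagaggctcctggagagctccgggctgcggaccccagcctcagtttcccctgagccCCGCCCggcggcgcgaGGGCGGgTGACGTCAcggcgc
The Dynlt3 window held 2 GC boxes, both on the opposite strand, at a GC content of 53.5%. Kif5c held 1 TGACGTCA and no GC box at a GC content of 55.2%, and Klc1 held 2 GC boxes and 1 TGACGTCA at 72.7%. Of the transport genes, 35 had a RefSeq window of 250 bases before the gene start. GGGCGG stood in 23 of them (65.7%), against 32.9% of the windows of 27025 genes. TGACGTCA stood in 4 (11.4%), those of Dctn3, Kif17, Kif5c and Klc1, against 1.62% of all windows. The CCAAT box was in 37.1% of the transport windows and 34.5% of all windows. AACAAT, a core motif of SOX factors, was in 2, those of Dctn2 and Dync1i2, against 9.65% of all windows, and in none of the 3 sequences above. The median GC content was 63.6% for the transport windows and 52.0% for all windows. The windows of all genes were not limited to a mean of at least 10, as the transport genes were, nor matched for GC content. Motifs were searched on both strands, and none of those searched is part of another. A match or its absence describes these letters only.

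Coding sequence matters for the Tctex-type dynein light chains, since near-identical copies share reads. The first 90 coding bases of Dynlt3 and of its relatives Dynlt1a and Dynlt1b, from GENCODE M21 on GRCm38, are shown with a base that differs from Dynlt1b within the Dynlt1 copies in capitals.
Dynlt1b: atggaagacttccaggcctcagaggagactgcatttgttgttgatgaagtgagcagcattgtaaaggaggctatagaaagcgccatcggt
Dynlt1a: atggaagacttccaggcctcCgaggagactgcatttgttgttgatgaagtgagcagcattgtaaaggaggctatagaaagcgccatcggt
Dynlt3: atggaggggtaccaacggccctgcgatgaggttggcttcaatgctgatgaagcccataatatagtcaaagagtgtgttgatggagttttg
Dynlt1a, Dynlt1c and Dynlt1f are identical over their 342 coding bases, and Dynlt1b differs from them at 1 base. Dynlt3, with 351 coding bases, is 61.9% identical to Dynlt1b, so its reads can be told from those of the copies. The values of the Dynlt1 copies themselves are uncertain: Dynlt1c was at 0 in all libraries and Dynlt1f had a mean of 9.14, below the limit.

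The libraries held from 10397924 to 12952768 reads and from 13429 to 15043 genes with a read. All 10 genes of a dopaminergic marker list were present in every library. Their summed level was 105953.5, 205310.5 and 178231.9 for Sox6+ 103, 825 and 1211, and 43537.2, 131883.0 and 38988.5 in the Sox6- libraries of the same numbers. Summed GABAergic markers were 7070.4, 14.8 and 2340.8 in Sox6+ neurons and 15561.6, 4460.3 and 12423.0 in Sox6- neurons. Of the Sox6- sums, Sst alone made up 3958.3, 3164.2 and 5814.1, the larger part in Sox6- 825, against at most 1.97 in a Sox6+ library. All 6 tested genes of this list had a negative log2 difference. That of Pvalb was only -0.2 (SE 2.73), although its mean was higher in Sox6+ neurons. Pvalb was at 0 in Sox6+ 825, but at 400.5 in Sox6+ 103 and 868.7 in Sox6+ 1211, above every Sox6- library. Groups did not overlap for Sst and Npy but overlapped for Gad1, Gad2, Slc32a1 and Pvalb, so the sums alone do not measure GABAergic cell content. Summed glutamatergic markers were 999.3, 162.8 and 764.2 in Sox6+ neurons and 2607.5, 2262.9 and 4815.2 in Sox6- neurons, without overlap. Slc17a6 had a log2 difference of -2.65, with an adjusted p of 0.266 in limma, and DESeq2 called it lower. Slc17a7 differed by 0.09 with overlapping groups. The part of this difference in the transport genes was not tested. Sox6+ library 825 stood apart, with a sum of 28372.9 over 14 microglia and macrophage markers (Lyz2 alone 26494.1) against 23.2 to 42.5 in the other libraries, while Tmem119 and Itgam were at 0 in all. Its sum over oligodendrocyte markers was 2106.6, against 263.9 to 392.3. The part of such RNA from other cells in the gene values below was not tested, and values without library 825 are given where they bear on a result. In bulk RNA, fewer cells of a type and less RNA per cell cannot be told apart.

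Of the 48 transport genes, 1 was higher in Sox6+ neurons and 0 were lower at an adjusted p under 0.05 (limma on log2(value + 1), Benjamini-Hochberg over 13175 genes). The background was 0.129% of all tested genes higher and 0.175% lower. At an unadjusted p under 0.05, 5 transport genes were higher (5.21% of all genes) and 1 was lower (6.17% of all genes). EdgeR on recovered reads called 0 transport genes in either direction, against 0.00759% of all genes higher and 0.038% lower. DESeq2 called 1 higher and 0 lower, the same gene as limma, against 1.31% and 1.66% of all genes. In the authors' deposited table, 1 transport gene was higher and 0 were lower at an adjusted p under 0.05, against 1.25% and 1.58% of all genes.

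Groups did not overlap for 11 of the 48 genes. Of these, 9 were higher in Sox6+ neurons, against 7.86% of all tested genes, and 2 were lower, against 9.19%. The 9 were Dynlt3, Dynll2, Kif5b, Kif5c, Klc1, Klc3, Kif3b, Kif16b and Kif18a, and the 2 were Kif17 and Dync2h1. Among the 32 transport genes with a mean of at least 100, 24 had a positive log2 difference (Sox6+ minus Sox6-), against 51.6% of all genes at that level. Their differences ran from -0.33 to 0.93 with a median of 0.15. The 95% interval lay within a 2-fold difference either way for 28 of the 32 (64.4% of all genes at that level) and within 1.5-fold for 12 (22.2%). Over all 48, 30 differences were positive (48.1% of all tested genes were), and the median was 0.13, against -0.02 for all tested genes. Scaling the libraries to an equal median of a pan-neuronal gene list moved the median of all tested genes by -0.12, and the transport genes then had a median of 0.01. The distance of their median from that of all genes was 0.15, or 0.08 with quantile normalization. With 1 library left out the median of the 48 was 0.21 without Sox6+ 103, 0.08 without Sox6- 103 and 0.13 without Sox6+ 825. These counts and medians are descriptions: the genes were not chosen by group, but Klc3 and Kif26b reached the mean of 10 only through their Sox6+ libraries.

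**Figure D1:**
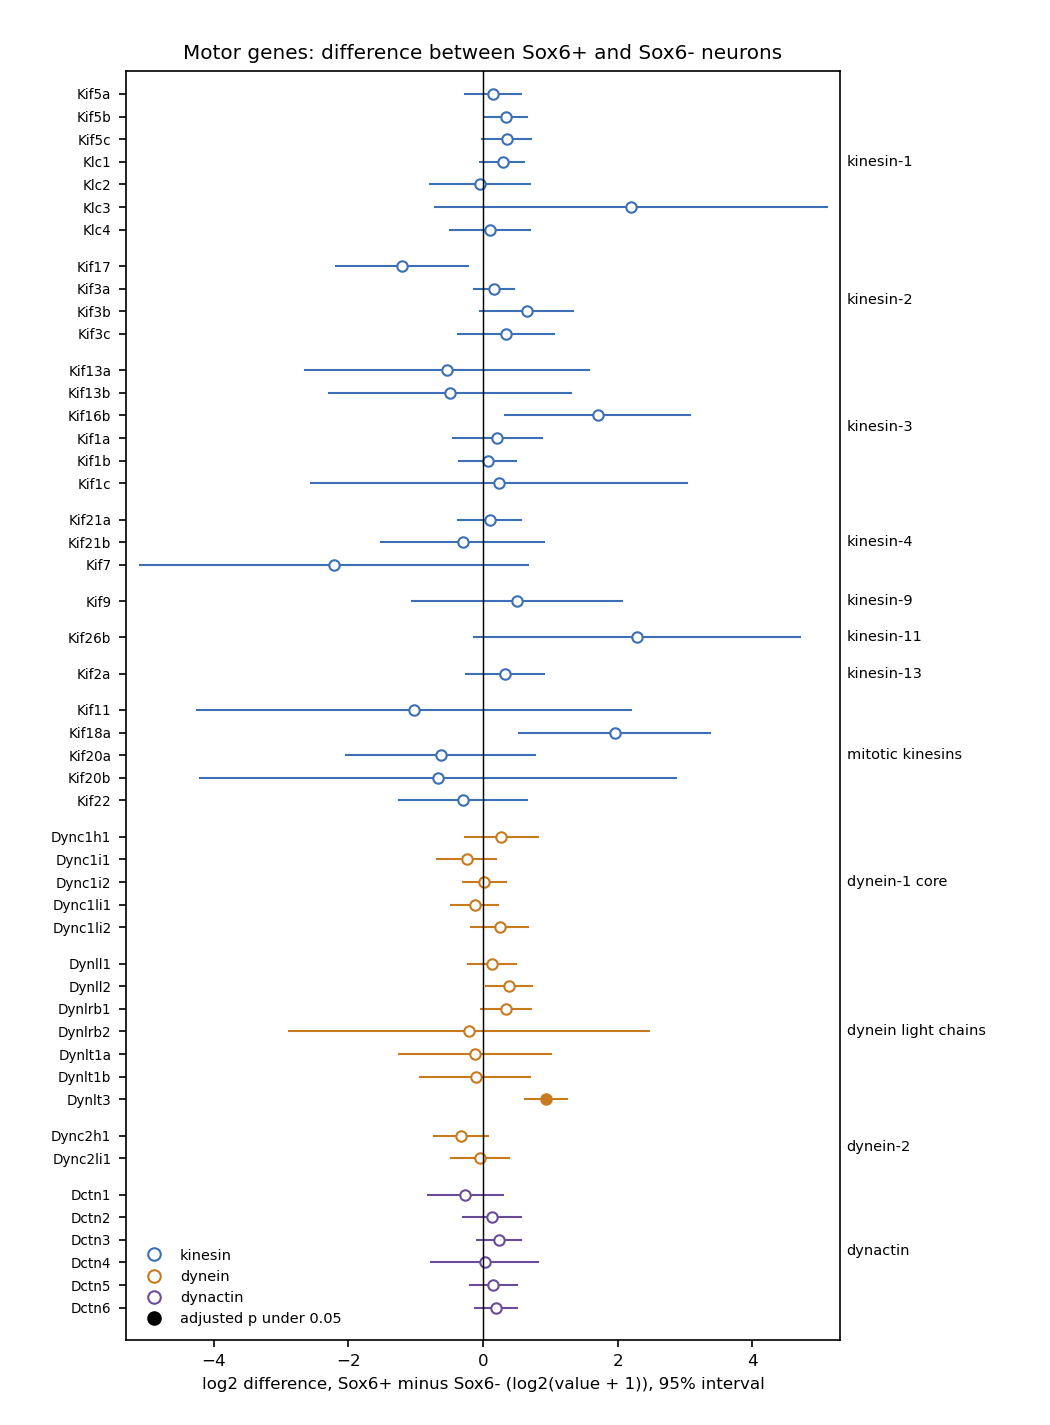
Each point is the log2 difference, Sox6+ minus Sox6-, of 1 transport gene on the log2(value + 1) scale, with its 95% interval from limma, ordered by motor class and coloured by family. Dynlt3 at 0.93 is the 1 filled point (adjusted p under 0.05), and the widest intervals belong to genes of low level such as Klc3, Kif7, Kif11 and Kif20b.

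**Figure D2:**
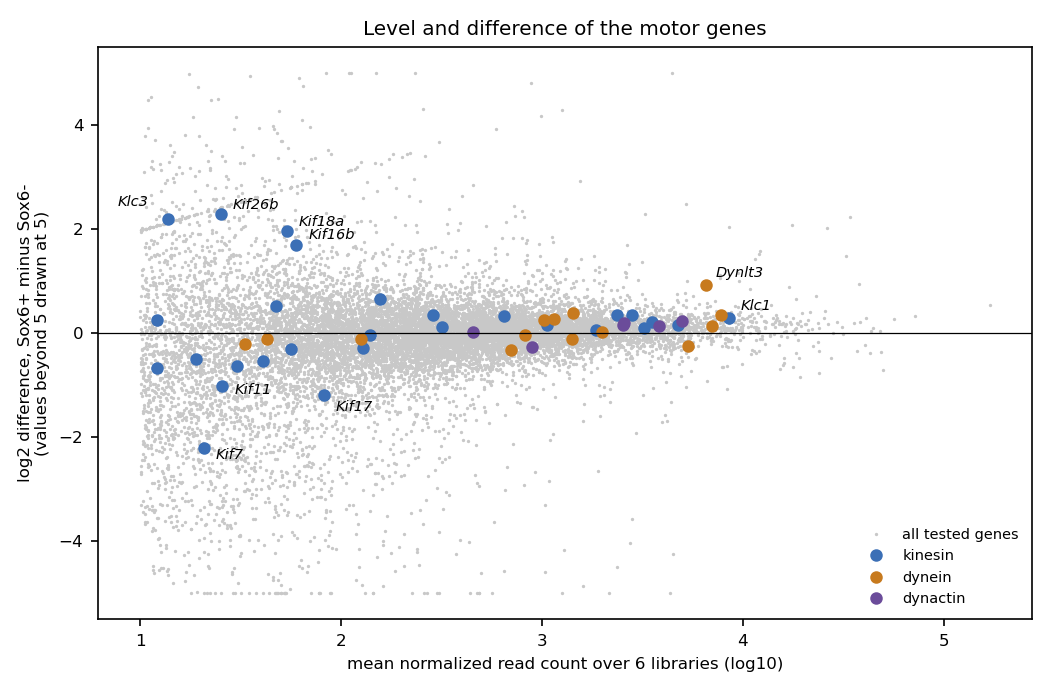
The horizontal axis is the mean normalized read count over the 6 libraries (log10 axis values) and the vertical axis the log2 difference, Sox6+ minus Sox6-, with the 48 transport genes coloured by family over all 13175 tested genes in grey. Dynlt3 stands above the other abundant transport genes, and differences beyond 1 in size belong to genes with means under 100.

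Dynein light chains gave the one call. These small subunits sit at the base of the motor, where they bind the intermediate chain and, in part, cargo adaptors. Of 7 measured, 1 rose in Sox6+ neurons, 4 had a positive difference and the median difference was 0.14. Dynlt3, a Tctex-type light chain on chromosome X (9654267 to 9663003, minus strand, GRCm38), had normalized read counts of 8208.9, 8329.6 and 9146.8 in Sox6+ neurons (libraries 103, 825 and 1211, the order used throughout) and of 4754.5, 4939.6 and 3834.9 in Sox6- neurons. Every Sox6+ library was above every Sox6- library, and the gap between the groups was wider than either group's range. The means were 8561.7 ± 510.3 and 4509.7 ± 591.6 (SD, n = 3 each), a ratio of 1.90.

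On the log2 scale Dynlt3 rose by 0.93 (SE 0.139, 95% interval 0.62 to 1.25) with an adjusted p of 0.0345 in limma. An exact permutation test of this gene alone gave p = 0.1, the smallest that 3 against 3 libraries allow. Between libraries of the same number the differences were 0.79, 0.75 and 1.25, so the direction held in 3 of 3. In the authors' deposited table its log2 fold change, written as Sox6- over Sox6+, was -0.92 with an adjusted p of 4.2e-07. The call was lost without any one of 5 libraries, with an adjusted p in limma of 0.0894 without Sox6+ 825, 0.165 without Sox6+ 1211, 0.0624 without Sox6- 103, 0.0602 without Sox6- 825 and 0.195 without Sox6- 1211. Over these the difference ran from 0.82 to 1.0, and it was 0.95 without Sox6+ 825, the library with macrophage transcripts. Limma also gave an adjusted p of 0.053 with no filter on low genes and 0.233 without trend and robust moderation, and edgeR on recovered reads gave 0.0714. The dopaminergic marker sums given above were also higher on average in Sox6+ neurons, with Sox6- 825 above Sox6+ 103, and their part in the Dynlt3 difference was not tested.

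Dynll2 encodes an LC8-type light chain, which also serves as a light chain of myosin V. It had 1407.8, 1667.1 and 1801.1 in Sox6+ neurons and 1247.2, 1207.5 and 1245.5 in Sox6- neurons. The Sox6- libraries lay close together (1233.4 ± 22.5) and all Sox6+ libraries were above them (1625.3 ± 200.0). Its log2 difference was 0.39 (95% interval 0.05 to 0.73), with an unadjusted p of 0.0301 and an adjusted p of 0.389 in limma. Dynll1, the other LC8 gene, had 6805.0, 7645.2 and 7556.4 against 5343.6, 7649.7 and 7227.5, and its groups overlapped. Only Sox6- 103 was low, and the log2 difference of Dynll1 was 0.14 (-0.22 to 0.49).

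Dynlrb1, a roadblock-type light chain, had the highest level per exon length of all 48 genes, at 8610 normalized reads per kilobase in Sox6+ and 6790 in Sox6- neurons. Its normalized read counts were 7145.4, 9410.2 and 9498.9 against 5924.0, 8004.1 and 6619.1. Sox6- 825 was above Sox6+ 103, so the groups overlapped, and the log2 difference was 0.34 (-0.03 to 0.71) with an adjusted p of 0.462 in limma. Dynlrb2, its relative in ciliated cells, was low and uneven, with 5.92, 10.25 and 95.18 against 30.7, 6.04 and 51.01. Its highest library, Sox6+ 1211, also had the highest sum over the 5 other genes of an ependymal marker list that holds Dynlrb2 itself, 546.1 against 0 to 64.9 elsewhere. Ccdc153 was at 160.8, Tmem212 at 184.8 and Foxj1 at 4.62 there, and Foxj1 was at 0 in the other libraries. The part of ependymal RNA in Dynlrb2 was not tested. Dynlt1a (40.91 ± 1.94 against 44.95 ± 8.29) and Dynlt1b (121.4 ± 37.3 against 129.4 ± 27.5) had log2 differences of -0.12 and -0.11, subject to the shared reads named above.

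Summed over the 7 light chains, normalized read counts were 23726.9, 27190.9 and 28302.7 for Sox6+ and 17458.2, 21961.0 and 19188.7 for Sox6-. The sums did not overlap, and Dynlt3 alone made up most of the gap between the group means, 26406.8 and 19536.0. Within the Tctex-type set of Dynlt3, Dynlt1a and Dynlt1b, Dynlt3 took 95.4%, 96.3% and 94.1% of the level per exon length in Sox6+ neurons. In Sox6- neurons it took 91.7%, 92.8% and 87.2%. Reads shared by the Dynlt1 copies may be missing from their values, so the Dynlt3 shares may be too high.

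**Figure D3:**
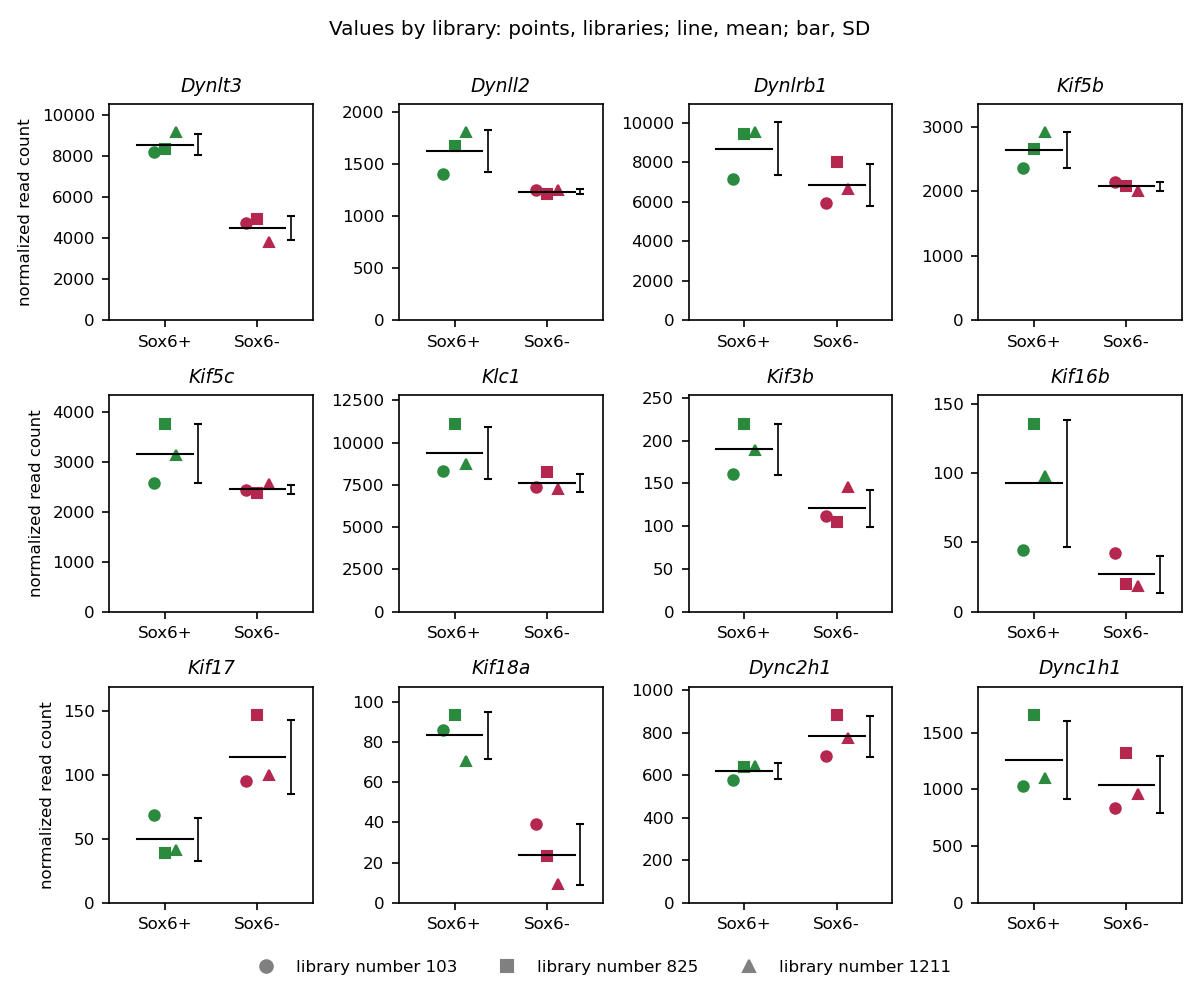
Each panel shows the normalized read count of 1 transport gene in the 3 Sox6+ (green) and 3 Sox6- (red) libraries, with the symbol shape for the library number, the line for the mean and the bar for the SD, on axes that start at 0. Dynlt3 runs from 8208.9 to 9146.8 in Sox6+ and from 3834.9 to 4939.6 in Sox6- neurons, whereas Dynlrb1 and Dync1h1 overlap between the groups.

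The core of dynein-1, the motor of retrograde axonal transport, had 5 genes measured, of which 0 passed the threshold in limma, edgeR or DESeq2 and 0 had an unadjusted p under 0.05 in limma. All 5 intervals lay within a 2-fold difference either way. Dync1h1, the heavy chain with the motor domain, had 1030.9, 1657.9 and 1098.8 in Sox6+ neurons and 836.6, 1324.3 and 962.7 in Sox6- neurons. Library 825 was the highest of both groups, the ranges overlapped, and the log2 difference was 0.27 (-0.26 to 0.81), or 0.06 without Sox6+ 825. Dync1i1, the intermediate chain typical of neurons, had 4230.2, 5010.3 and 5271.1 against 7660.4, 5386.8 and 4485.1. Its highest value was in Sox6- 103, the library with the highest GABAergic sum, and its difference was -0.24 (-0.69 to 0.20). The part of GABAergic cells in that value was not tested. Dync1i2, the intermediate chain found in most cell types, was nearly level, at 2208.8, 1895.9 and 1904.6 against 2049.2, 2037.3 and 1819.6. The difference of Dync1i2 was 0.02 (-0.30 to 0.34), an interval within a 1.5-fold change either way. The light intermediate chains, which hold cargo adaptors, differed by -0.12 (-0.47 to 0.23) for Dync1li1 and by 0.25 (-0.18 to 0.67) for Dync1li2.

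Dynein-2 returns intraflagellar transport trains from the tip of the cilium. Its heavy chain Dync2h1 had 576.1, 639.9 and 645.0 in Sox6+ neurons and 689.8, 884.2 and 774.4 in Sox6- neurons. The groups did not overlap, with Sox6- neurons higher in every library, but the log2 difference of -0.33 (-0.73 to 0.07) had an adjusted p of 0.513 in limma. Dync2li1, its light intermediate chain, differed by -0.04 (-0.47 to 0.39), with overlapping groups.

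Dynactin links dynein to cargo and keeps it on the track. None of its 6 genes passed the threshold in limma, edgeR or DESeq2, and 0 had an unadjusted p under 0.05 in limma, with adjusted p from 0.565 to 0.985. Dctn1 encodes p150Glued, the subunit that binds microtubules and the dynein intermediate chain. It had 620.5, 1182.0 and 683.8 in Sox6+ neurons and 887.4, 957.7 and 1017.4 in Sox6- neurons. Sox6+ 825 was the highest of all 6 libraries and the other Sox6+ libraries the lowest, so the groups overlapped. The difference of Dctn1 was -0.26 (-0.81 to 0.29), and -0.55 with an adjusted p of 0.354 in limma without Sox6+ 825. The others were positive, at 0.13 for Dctn2, 0.24 for Dctn3, 0.03 for Dctn4, 0.15 for Dctn5 and 0.19 for Dctn6, and each of their intervals took in 0. With pan-neuronal scaling the dynactin median of 0.14 went to 0.02.

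Kinesin-1, the motor of mitochondria and of many vesicles, had 7 genes measured and 0 past the threshold in limma, edgeR or DESeq2. One had an unadjusted p under 0.05 in limma. Groups did not overlap for 4, all higher in Sox6+ neurons (7.86% of all tested genes), among them Klc3, which reached the mean of 10 only through its Sox6+ libraries. The median difference was 0.22 over the 6 genes with a mean of at least 100. Kif5b, the heavy chain of most tissues, had 2362.7, 2653.2 and 2913.7 in Sox6+ neurons and 2148.9, 2085.6 and 1999.6 in Sox6- neurons. All Sox6+ libraries were above all Sox6- libraries, and Sox6+ 103 was the nearest to them. The log2 difference of Kif5b was 0.34 (0.03 to 0.66), with an unadjusted p of 0.0357 and an adjusted p of 0.407 in limma.

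Kif5c, a heavy chain of neurons, had 2583.7, 3763.4 and 3129.0 against 2429.1, 2375.7 and 2545.8. Sox6+ 103 was only just above the highest Sox6- library, and the highest value was in Sox6+ 825. Its difference was 0.35 (-0.01 to 0.71), with an adjusted p of 0.451 in limma, and 0.22 without Sox6+ 825. Kif5a, the third heavy chain and the one altered in hereditary spastic paraplegia, had 1008.2, 1161.5 and 1160.7 against 898.0, 880.2 and 1252.0. Here Sox6- 1211 was the highest library, and the difference was 0.15 (-0.27 to 0.57).

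Klc1, the main light chain of neurons, had 8304.5, 11112.5 and 8699.6 in Sox6+ and 7389.9, 8237.8 and 7240.5 in Sox6- neurons. The groups did not overlap, although Sox6- 825 came close to Sox6+ 103. The difference of Klc1 was 0.29 (-0.04 to 0.61), with an adjusted p of 0.478 in limma, and 0.16 without Sox6+ 825. Klc3 was near the lower limit, at 15.78, 22.77 and 23.1 against 0, 5.04 and 15.77, and its Sox6+ 103 value differed from that of Sox6- 1211 by less than 1 read. Klc4 and Klc2 differed by 0.11 and -0.04. Summed kinesin-1 counts were 14771.2, 19246.3 and 16293.0 for Sox6+ and 13344.5, 14064.6 and 13436.7 for Sox6-. These sums did not overlap, but this depends on the scaling. Pan-neuronal scaling divides Sox6+ 1211 by 1.1001 and Sox6- 1211 by 0.8783, which puts the sum of Sox6- 1211 above that of Sox6+ 1211. With that scaling the log2 differences of Kif5b, Kif5c and Klc1 were 0.22, 0.23 and 0.17.

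Kinesin-2 moves membrane cargo and anterograde intraflagellar transport. Its 4 genes held 0 calls in limma, edgeR or DESeq2 and 1 unadjusted p under 0.05 in limma. Kif3a, the common subunit, had 4404.8, 5407.7 and 5316.4 against 4423.6, 4394.8 and 4705.8. Sox6+ 103 lay among the Sox6- values, and the difference was 0.16 (-0.14 to 0.46). Kif3b, a partner of Kif3a, had 160.8, 219.8 and 188.5 against 112.2, 104.7 and 145.6. These groups did not overlap, and the difference of 0.65 (-0.04 to 1.34) had an adjusted p of 0.458 in limma. Without Sox6+ 825 the difference of Kif3b was 0.54. Kif3c, the alternative partner, differed by 0.34 with an adjusted p of 0.716 in limma. The heterotrimer's cargo subunit Kifap3, outside the symbol rule, differed by 0.06.

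Kif17, the homodimeric kinesin-2 known for carrying NMDA receptor subunits into dendrites, pointed the other way. It had 69.06, 38.72 and 41.58 in Sox6+ neurons and 94.98, 147.0 and 100.2 in Sox6- neurons. Every Sox6- library was above every Sox6+ library, and the means of 49.79 ± 16.8 and 114.1 ± 28.7 made Kif17 2.29-fold lower in Sox6+ neurons. The log2 difference was -1.20 (-2.18 to -0.23), with an unadjusted p of 0.021 and an adjusted p of 0.345 in limma, and -1.05 without Sox6+ 825.

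Kinesin-3 motors carry synaptic vesicle precursors, dense core vesicles and endosomes, and 0 of 6 passed the threshold in limma, edgeR or DESeq2, with 1 unadjusted p under 0.05 in limma. Kif1a, the main carrier of synaptic vesicle precursors, had 2433.8, 4115.3 and 4886.7 against 2330.3, 3337.4 and 4053.8. Library 103 was the lowest and 1211 the highest of both groups, so the spread within each group was larger than the difference of 0.21 (-0.44 to 0.87). Kif1b, with isoforms for mitochondria and vesicles that gene-level counts do not separate, had 1707.7, 1703.5 and 2302.0 against 1556.1, 1710.0 and 2185.0. Its groups overlapped almost completely, with a difference of 0.07 (-0.35 to 0.49). Kif16b, an early endosome motor, had 44.39, 135.5 and 97.96 against 42.21, 20.14 and 18.55. The groups did not overlap, but the number 103 libraries were nearly equal and the highest value was in Sox6+ 825. The difference of Kif16b was 1.70 (0.33 to 3.07), with an adjusted p of 0.342 in limma, and 1.36 without Sox6+ 825. Kif13a, Kif13b and Kif1c were low, with differences of -0.54, -0.49 and 0.24 and overlapping groups.

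Among the remaining kinesins outside cell division, 0 of 6 passed the threshold and 0 had an unadjusted p under 0.05 in limma, and edgeR and DESeq2 also called 0. Kif21a, a kinesin-4 that slows microtubule growth, was abundant, at 2566.9, 3157.6 and 4347.9 against 2666.0, 3666.7 and 2944.6. Apart from Sox6+ 1211 the libraries of both groups were interleaved, and the difference was 0.10 (-0.37 to 0.57). Kif2a, a kinesin-13 that shortens microtubules, had 861.2, 542.0 and 755.9 against 756.9, 527.7 and 445.2. Its difference was 0.33 (-0.25 to 0.91), with overlap, and ran from 0.16 without Sox6- 1211 to 0.54 without Sox6- 103. Kif26b, a kinesin-11 without motor activity, had 12.82, 77.43 and 36.04 against 1.92, 17.12 and 5.56. Its difference of 2.28 (-0.14 to 4.71) had an adjusted p of 0.456 in limma, and it was 1.69 without Sox6+ 825. Kif7, a regulator of hedgehog signalling in cilia, had 24.66, 0 and 9.24 against 44.13, 22.16 and 24.11, with an adjusted p of 0.542 in limma. For both genes 1 library of one group reached into the range of the other. Kif9, a kinesin-9 of motile cilia, differed by 0.51 (-1.05 to 2.07).

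The 5 kinesins of cell division were low, and neurons do not divide. Kif18a, which limits the length of spindle microtubules, had 85.83, 93.37 and 70.23 in Sox6+ neurons and 39.33, 23.16 and 9.27 in Sox6- neurons. The groups were clearly apart, with means of 83.14 ± 11.8 and 23.92 ± 15.0, a ratio of 3.48. The log2 difference of 1.96 (0.54 to 3.37) had an unadjusted p of 0.0118 and an adjusted p of 0.278 in limma, and it was 1.87 without Sox6+ 825. The other 4 (Kif11, Kif20a, Kif20b and Kif22) had negative differences and overlapping groups. Of these, Kif11 and Kif20b were at 0 in Sox6+ 825. The log2 difference of Kif11 was -1.02, although its mean was slightly higher in Sox6+ neurons, 26.42 ± 22.9 against 24.75 ± 12.4. Kif22 had 153.9, 59.21 and 151.6 against 135.3, 141.0 and 132.6, so that Sox6+ 825 alone stood low. A list of 8 dividing-cell markers summed to at most 58.2 in a Sox6+ library and 71.4 in a Sox6- library, and Mki67 and Bub1 were at 0 in all 6.

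Levels between genes were compared as normalized reads per kilobase of annotated exon. By the mean of both groups, Dynlrb1 was followed by Dctn3, at 5160 in Sox6+ and 4380 in Sox6- neurons, then Dynlt3 at 3320 and 1750, Klc1 at 2300 and 1870 and Dynll1 at 1890 and 1730. Among the kinesin motor subunits Kif3a led, at 1410 and 1260, above Kif21a at 518 and 478, Kif5c at 442 and 343, Kif1a at 409 and 347 and Kif5b at 331 and 260. The dynein heavy chain Dync1h1 was lower, at 80.6 and 66.5. In Sox6- neurons alone Klc1 was ahead of Dynlt3, Dynll1 was nearly level with it, and Kif1a was just ahead of Kif5c. Exon lengths sum all annotated exons of a gene, so a long UTR that neurons do not use lowers its value.

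The make-up of paralog sets was compared as shares of the level per exon length. Kif5c took 47.2% ± 3.60 of the kinesin-1 heavy chains in Sox6+ and 45.9% ± 0.469 in Sox6- neurons, ahead of Kif5b (35.7% ± 2.84 and 34.9% ± 2.62) and Kif5a (17.1% ± 0.891 and 19.2% ± 3.08, SD, n = 3 each). Klc1 took 92.8% ± 1.14 and 91.9% ± 0.58 of the light chains. Kif1a took 78.0% ± 4.63 and 76.5% ± 2.58 of the Kif1 genes, and Dync1i1 took 84.7% ± 2.68 and 86.9% ± 2.42 of the intermediate chains. In all of these the groups overlapped. The Tctex-type set was the one of those compared in which they did not, with Dynlt3 at 95.3% ± 1.06 and 90.6% ± 2.98. Both Dynlt3 shares are subject to the uncertain values of the Dynlt1 copies.

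**Figure D4:**
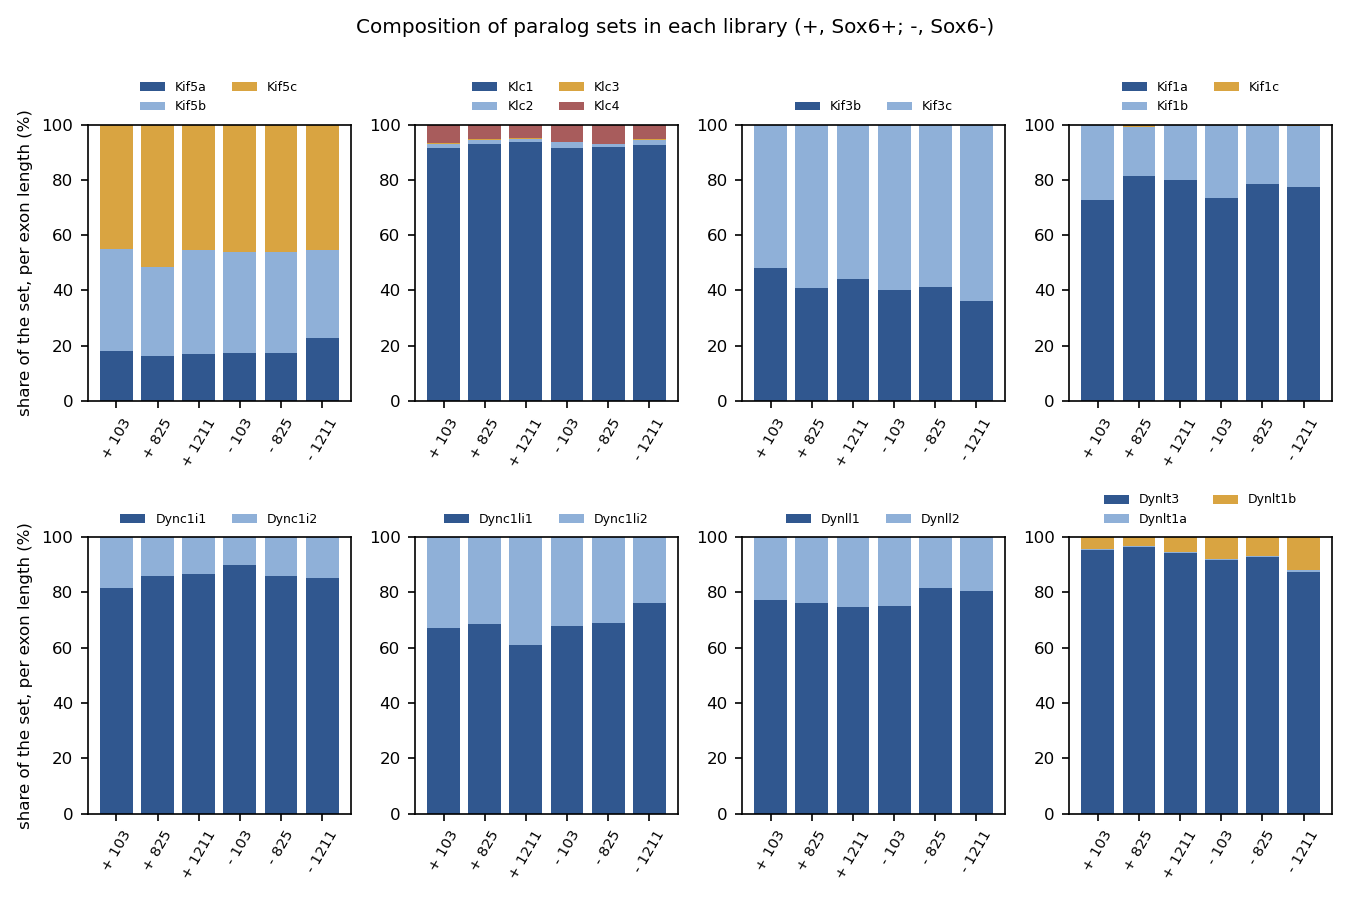
Each stacked bar is 1 library (Sox6+ libraries marked +, Sox6- libraries marked -) and shows the share, in percent, of each paralog in its set, from normalized reads per exon length. In the Kif5, Klc, Kif1 and Dync1i sets the bars of both groups overlap, and the Dynlt3 share is lowest in Sox6- 1211 at 87.2%.

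Partner genes outside the symbol rule were taken from lists of the pathway. Of 16 dynein regulators and adaptors, 0 passed the threshold in limma or edgeR, 1 was lower by DESeq2 (1.66% of all genes) and 3 had an unadjusted p under 0.05 in limma, all of them lower in Sox6+ neurons (6.17% of all genes). The DESeq2 call was Hap1, the huntingtin-associated adaptor that joins cargo to dynactin and kinesin-1. It had 625.5, 341.6 and 542.5 in Sox6+ neurons and 1126.3, 1079.6 and 1960.6 in Sox6- neurons. The groups did not overlap, and the log2 difference of -1.45 (SE 0.295) had an adjusted p of 0.093 in limma. Of 8 dynein and dynactin subunits outside the rule, 0 were called by limma, edgeR or DESeq2 and 1 had an unadjusted p under 0.05 in limma. That one was Wdr60, a dynein-2 intermediate chain, at -0.80, while Actr1a, the filament of dynactin, differed by -0.03. Of 18 kinesin adaptors and regulators, 0 were called by the 3 tools and 1 had an unadjusted p under 0.05 in limma, Fez1 at -0.37 with an adjusted p of 0.302.

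The track itself was covered by 20 tubulins and microtubule-associated proteins, of which 15 had a positive difference (51.6% of all genes with a mean of at least 100), with a median of 0.17. With pan-neuronal scaling 12 were positive and the median was 0.05. Limma and edgeR called 0, DESeq2 called 1 lower (1.66% of all genes), and 2 had an unadjusted p under 0.05 in limma, 1 in each direction. Stmn4, a stathmin that binds free tubulin, had 1583.4, 1172.9 and 1105.2 in Sox6+ neurons and 3137.1, 2114.8 and 2482.7 in Sox6- neurons. Its groups did not overlap, and the log2 difference of -1.0 (SE 0.199) had an adjusted p of 0.0861 in limma. Of 11 tubulin-modifying enzymes, 0 were called by the 3 tools and 4 had an unadjusted p under 0.05 in limma, 3 higher and 1 lower, against 11.4% of all genes. The smallest was that of Agtpbp1, which trims glutamates from tubulin tails, at 0.62 with an adjusted p of 0.228. Of 18 genes of intraflagellar transport, the cargo trains of kinesin-2 and dynein-2, limma and edgeR called 0, DESeq2 called 1 higher (1.31% of all genes), and 1 had an unadjusted p under 0.05 in limma. That gene was Ift57, which had 1800.4, 1382.4 and 2533.0 against 877.8, 902.3 and 1076.8. All Sox6+ libraries were above all Sox6- libraries, and the difference of 0.96 (SE 0.223) had an adjusted p of 0.136 in limma.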

How the data were processed

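Papain-dissociated, sorted neurons gave poly(A) RNA libraries with a stranded TruSeq kit, per the labels' protocols. Tools named by the submitters' processing notes are STAR, HTSeq, DESeq2, FastQC and cutadapt, with builds GRCm38 and mm10. Versions, settings and strandedness of counting are not given. For 23337 genes the authors deposited 6 columns of normalized signal (reads over a size factor per library) and their mean. The same deposited table has the authors' log2 fold change (Sox6- over Sox6+), a score that is their test statistic, and the raw and adjusted p-value. Dividing by the value of 1 read, from 0.9241 to 1.1387 by library, gave whole reads for 100.0% of values (tolerance 0.01). In Sox6- 825 that value was 1.0071, which an automatic check cannot tell from raw counts.

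Testing took the 13175 genes whose 6 values averaged at least 10. Limma 3.58.1 (R 4.3.3) was run on log2(value + 1) with trend and robust moderation, 2-sided and unblocked, and adjusted by Benjamini-Hochberg at 0.05. Differences of low genes are understated on this scale, except where 1 library is at 0. Alternatives were edgeR 4.0.16 and DESeq2 1.42.0 on the recovered reads, other pseudocounts, filters and scalings, a replicate block, library weights and left-out libraries. Values per library are given for genes past the threshold, the 12 of smallest p, those over 2-fold apart without overlap and fixed main subunits. Kif7, Kif22, Dynlrb2 and the low genes of the closing section were named after their values were seen. The members and lists were chosen with earlier results of these data known. Positions, exon lengths and coding sequences came from GENCODE M21 (GRCm38) and promoters from RefSeq (GRCm38.p6). No library was a copy of another: within groups log2 values correlated at 0.796 to 0.92 (Pearson), and every pair had a chi-square of 34.4 or more per gene. The fit was tested on simulated counts.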

Additional observations from a re-analysis of the deposited data

How the results depend on the processing

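The count of transport genes higher in Sox6+ neurons was 1, Dynlt3. It was 0 without a filter beyond a read (adjusted p of Dynlt3 0.053), without trend and robust moderation (0.233), with edgeR (0.0714), and without both libraries of number 103 (0.0553), 825 (0.159) or 1211 (0.753). With 1 library left out it ran from 0 to 1, kept without Sox6+ 103 (0.0254) and lost without each of the other 5 (0.0602 to 0.195). The log2 difference of Dynlt3 ran from 0.77 to 1.02 over all 22 alternatives. The count lower was 0 in all 22. Fewer libraries or more genes tested are part of these alternatives, and otherwise the cause was not tested.

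With the replicate block the count was 1 and the adjusted p of Dynlt3 0.00739, and among partner genes limma with the block also called Hap1 and Stmn4 lower and Ift57 higher. Deviations of same-numbered libraries correlated at 0.268, 0.172 and 0.079, so the numbers were not taken to pair the libraries, although every library correlated best with its own number. Over all genes limma called 40, against 267 with the block, 120 with the edgeR block, 6 with edgeR, 387 with DESeq2, 206 with library weights, 69 with quantile normalization or a pseudocount of 8, 21 without a filter and 24 without trend and robust moderation.

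The kinesin median of 0.15 was 0.03 with pan-neuronal scaling and from 0.12 to 0.24 with 1 library left out. The dynein median of -0.01 was -0.13 with pan-neuronal scaling, 0.13 with library weights and from -0.0098 to 0.13 with 1 library left out. The dynactin median of 0.14 was 0.08 with quantile normalization, 0.02 with pan-neuronal scaling, 0.21 with library weights, 0.20 without number 825, 0.10 without number 1211 and from 0.09 to 0.22 with 1 library left out. Differences near 0 changed sign, and none of these was past the threshold. Kif1b became -0.0019 with quantile normalization, -0.05 with pan-neuronal scaling, -0.08 without Sox6+ 1211 and -0.04 without Sox6- 103. Dync1i2 became -0.05 with quantile normalization, -0.10 with pan-neuronal scaling, -0.05 without Sox6+ 103, -0.03 without Sox6- 1211 and -0.02 without number 103. Kif21a became -0.02 with pan-neuronal scaling, -0.11 without Sox6+ 1211, -0.0032 without Sox6- 103 (0.27 without Sox6+ 103) and -0.14 without number 1211. Without Sox6- 103, Kif1a (0.51 without Sox6+ 103) became -0.0080 and Dynll1 -0.02, and Dync1i1 became 0.06 without number 103. The other 18 of the 24 named genes kept their sign in every alternative run. Low genes rest on few reads, with 95% intervals as wide as -5.09 to 0.67 for Kif7 and -0.72 to 5.10 for Klc3.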

Other observations

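Of the 16 symbols of the rule below a mean of 10, 4 (Dynlt1c, Kif14, Kif2b and Kif4-ps) were at 0 in all 6 libraries. Kif12, a kinesin of epithelial tissues, had 39 reads over the Sox6- group and 0 over the Sox6+ group. Its normalized values of 21.11, 7.05 and 9.27 in Sox6- neurons make it at least 13.1-fold lower in Sox6+ neurons, with a floor of 3 reads over the group, for counting error only. Kif23, a kinesin of the central spindle, had 7 reads against 50, and its values of 2.96, 4.55 and 0 against 18.23, 11.08 and 18.55 did not overlap. Kif6, a kinesin of motile cilia, had 0, 0 and 34.19 against 0.96, 1.01 and 18.55, so its reads came almost wholly from the number 1211 libraries. Over the 5 ependymal markers other than Dynlrb2 these libraries also had the highest sums of their groups, 546.1 and 64.9. The 64.9 of Sox6- 1211 was close to the 53.7 of Sox6- 103. In Sox6- 1211 the marker 1700027A23Rik alone gave 53.79, while Tmem212 and Foxj1 were at 0. The part of ependymal RNA in Kif6 was not tested. None of these genes was tested, and they were picked after their values were seen.

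Axonemal dyneins, the motors of beating cilia, gave 0 calls in limma, edgeR or DESeq2 among 9 tested genes, and 0 had an unadjusted p under 0.05 in limma. Of 4 kinesins outside the symbol rule 0 were called by the 3 tools and 0 had an unadjusted p under 0.05 in limma.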
